A study of Mus musculus with 31 samples.

Results

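The mitochondrial genome genes are the 37 rows of the deposited gene tables that lie on the mitochondrial chromosome, of 45706 rows in all. They were chosen by chromosome alone, with no use of measured values, and comprise 13 protein genes, 2 ribosomal RNA (rRNA) genes and 22 transfer RNA (tRNA) genes. RNA sequencing counts were compared in 31 libraries of sorted bone marrow cells from wild type C57BL/6 mice aged 10 weeks, which had received PBS or 1 mg of β-glucan, a polysaccharide of fungal cell walls, in the peritoneum. Long-term haematopoietic stem cells (HSC) were taken at day 7 (4 PBS and 3 β-glucan libraries) and at day 28 (4 and 4), and multipotent progenitors (MPP), their more committed descendants, at day 28 (4 and 4). In a further set (4 and 4 HSC libraries) the mice of both arms also received 5-fluorouracil (5-FU), a cytotoxic drug that kills dividing cells, at 150 mg/kg on day 7 after PBS or β-glucan, and were killed 14 days after it. The labels do not say whether a library came from 1 animal or a pool, so the spread between libraries may be partly technical.

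Mitochondria carry their own small circular genome. It is read from both strands as long precursors, which are cut, mostly at the tRNAs, into rRNAs, tRNAs and messenger RNAs (mRNAs) that receive a poly(A) tail. Its protein genes encode core subunits of complexes I, III, IV and V of oxidative phosphorylation (OXPHOS). All other subunits, with every protein that transcribes, processes and translates these RNAs, come from the nucleus. Long-term stem cells are known for low reliance on oxidative phosphorylation, which rises as they become progenitors.

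Of the 13 protein genes, 7 encode subunits of complex I (mt-Nd1, mt-Nd2, mt-Nd3, mt-Nd4l, mt-Nd4, mt-Nd5 and mt-Nd6), the NADH dehydrogenase, and mt-Cytb encodes cytochrome b of complex III. Cytochrome c oxidase, complex IV, takes 3 (mt-Co1, mt-Co2 and mt-Co3) and ATP synthase, complex V, takes 2 (mt-Atp8 and mt-Atp6). On the plus strand lie 28 members and on the minus strand 9, which are mt-Nd6 and 8 tRNA genes. The 37 genes span bases 1 to 15422 of the mitochondrial chromosome in the GRCm38 (mm10) annotation. Several overlap, and the end of mt-Atp8 (M:7766-7969) and the start of mt-Atp6 (M:7927-8607) share 43 bases, shown here in capitals because a read inside them belongs to both genes. The stretches are M:7910-7969 and M:7927-7986, on the plus strand.
mt-Atp8: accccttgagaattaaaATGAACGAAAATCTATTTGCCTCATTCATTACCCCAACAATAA
mt-Atp6: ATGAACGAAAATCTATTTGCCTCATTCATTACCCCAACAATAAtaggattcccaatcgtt

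The nuclear genome holds inserted copies of mitochondrial DNA, and these bear on what the counts of some members mean. On chromosome 1, 7 annotated pseudogenes within 4663 bases (1:24611535-24616197) match bases 6394 to 11042 of the mitochondrial chromosome. In 50-base windows, a length a short read could cover, Gm28661 shared 632 of the 635 windows of mt-Co2, Gm10925 629 of the 632 of mt-Atp6, and Gm28437 734 of the 735 of mt-Co3. Over their whole lengths, Gm28661, Gm10925, Gm28437, Gm10222 (a copy of mt-Nd4l) and Gm28439 (a copy of part of mt-Nd4) differed from the mitochondrial gene at 0 bases. Gm28438, a copy of mt-Nd3, differed at 1 base. A stretch of 60 bases of mt-Co2 shows why a read from there could not be assigned to mt-Co2 or Gm28661 by its letters, whereas the copy on chromosome 2, Gm13341, differs at 6 bases, in capitals. The stretches are M:7464-7523 on the plus strand and 1:24615055-24615114 and 2:22587464-22587523 on the minus strand.
mt-Co2: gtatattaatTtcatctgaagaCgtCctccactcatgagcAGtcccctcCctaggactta
Gm28661: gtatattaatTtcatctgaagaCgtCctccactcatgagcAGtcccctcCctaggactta
Gm13341: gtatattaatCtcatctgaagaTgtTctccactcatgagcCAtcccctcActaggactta

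The 6 protein genes wholly inside bases 6394 to 11042 of the mitochondrial chromosome held almost no counts in the day 7 table. For mt-Co2 the 7 day 7 libraries held 22 to 39 counts, against 27594 to 53395 in the 16 libraries of day 28 and 37399 to 61541 in the 8 libraries of the 5-FU set. The mt-Co3 counts were 30 to 54 at day 7, 72685 to 146017 at day 28 and 93592 to 165410 after 5-FU. For mt-Atp6 they were 29 to 43, 65632 to 122841 and 62572 to 99339. The same gap was seen for mt-Nd3 (79 to 150 counts at day 7, 2756 to 5368 at day 28), mt-Atp8 (2 to 7 against 3111 to 7116) and mt-Nd4l (0 to 2 against 493 to 1218). Of these, mt-Atp8 shared no window with an annotated nuclear transcript. The genes mt-Co1 and mt-Nd4 lie partly inside the stretch and shared 51.1% and 62.2% of their windows with such transcripts. They did not show the gap, with 40198 to 58888 and 10029 to 11864 counts at day 7. Of the genes outside the stretch, mt-Rnr1, mt-Nd1, mt-Nd6 and mt-Cytb shared no window with an annotated nuclear transcript, and mt-Cytb held 57614 to 70284 counts at day 7 and 22371 to 40722 at day 28.

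The nuclear copies themselves held counts in every table. Of the counts on mt-Co3 and Gm28437 together, the share on the nuclear row was 92.5% to 97.2% in the day 7 libraries, 1.55% to 2.09% at day 28 and 0.549% to 0.662% after 5-FU. For mt-Co2 and Gm28661 it was 91.6% to 95.0% at day 7, 1.37% to 1.92% at day 28 and 0.660% to 0.749% after 5-FU. The counts on the nuclear rows themselves moved far less: Gm28437 held 665 to 1234 counts at day 7, 1221 to 2883 at day 28 and 566 to 913 after 5-FU, and Gm28661 held 359 to 609, 508 to 996 and 251 to 420. The high share at day 7 thus comes from the low counts on the mitochondrial rows, and the nuclear rows did not hold the counts missing there. The sources used here do not give how reads that fit several places were handled, and its part in the gap was not tested. The levels of these 6 genes at day 7 are therefore not set beside those of the other tables, and neither are sums that contain them.

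**Figure D1:**
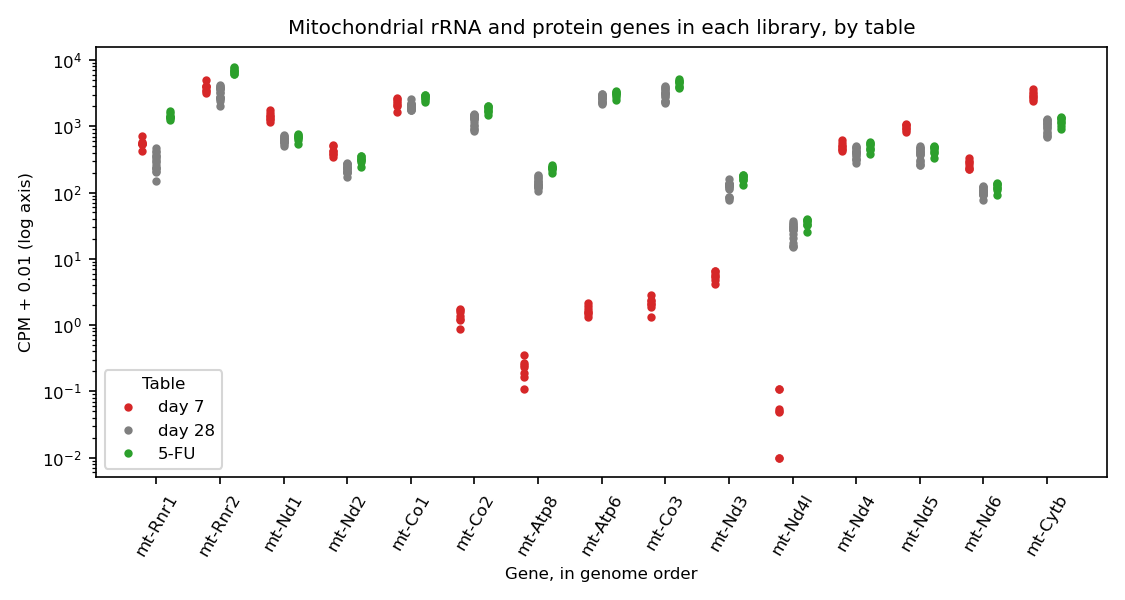
CPM (counts scaled to the library total) of the 2 rRNA and 13 protein genes in genome order, on a log axis with 0.01 added to each value, with 1 point per library and a colour for each of the 3 tables. The 6 genes from mt-Co2 to mt-Nd4l lie far lower in the 7 day 7 libraries than in the other 24, and the other 9 do not.

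Total counts per library ran from 19331663 to 39485556, so counting error is small for the 15 rRNA and protein genes outside the day 7 gap. Haemoglobin genes, defining for red cells, took 1.69% to 18.2% of the counts of a library and 12 neutrophil markers took 5.72% to 20.1%, while 14 LT-HSC markers took 0.0399% to 0.237%. All 14 LT-HSC markers were at 1 CPM or more in the day 7 and 5-FU groups, 13 in HSC at day 28 and 12 in MPP. In bulk samples such as these, fewer cells of a type and less RNA per cell cannot be told apart. In MPP of PBS mice 1 library carries a cell type tag of HSC, and its title was followed.

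The 37 members together took 1.18% to 1.90% of counts in HSC at day 28, 1.38% to 1.83% in MPP and 2.04% to 2.69% in HSC after 5-FU. In HSC at day 7 the sum was 1.11% to 1.56%, but it lacks most counts of 6 genes and is not set beside these. Per kilobase of gene, mt-Co3 and mt-Atp6, which follow each other in the genome, led the protein genes in the 6 groups of the day 28 and 5-FU tables. On that scale, as CPM per kilobase on all counts, mt-Co3 stood at 4028 and mt-Atp6 at 4085 in day 28 HSC of PBS mice, and at 5264 and 4200 after 5-FU. The lowest of the protein genes there was mt-Nd4l, at 73.9 and 105 CPM per kilobase. mt-Atp8, which overlaps mt-Atp6 by 43 bases, stood at 770 and 1121. Among the rRNAs, mt-Rnr2 (the large subunit) stood at 1997 CPM per kilobase and mt-Rnr1 (the small subunit) at 270 in day 28 HSC of PBS mice. These libraries were primed on poly(A) tails, so tails and 3′ ends can enter these levels.

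The tRNA genes held few counts. Free tRNAs are short and carry no poly(A) tail. Of the 22, mt-Tp held 50 to 200 counts a library and mt-Te 51 to 167 over all tables, and 7 passed the filter on low counts in the day 28 and 5-FU comparisons. mt-Ts1, at the edge of mt-Co1 on the other strand, held 208 to 491 counts at day 28 and 775 to 1175 after 5-FU, but 0 in every day 7 library. The library kit does not mark strand, so reads of the opposite precursor and of these minus-strand genes cannot be told apart.

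β-glucan against PBS in HSC at day 7 addressed the early response, and no member passed the adjusted test. Of 19 members that passed the filter, 0 were called by edgeR's quasi-likelihood test at an adjusted p under 0.05, where 6.72% of all genes tested were called. The median log2 fold change of these 19 was -0.08. They were 2 rRNA, 11 protein and 6 tRNA genes. The protein genes included mt-Co2, mt-Atp6, mt-Co3 and mt-Nd3, which held only 22 to 150 counts in these libraries. For these and for the tRNA genes, low counts limit what the test and the median can show. The lowest adjusted p was 0.193, for mt-Nd5, a complex I subunit. Its TMM-scaled CPM was 930, 1018, 1089 and 1016 in the PBS libraries and 923, 869 and 874 in the β-glucan libraries, a log2 fold change of -0.19 ± 0.08 (SE, n = 4 and 3). The arms did not overlap for mt-Nd5, but that was so for 2 of the 19 members, the other being mt-Tl1, and for 18.9% of all genes. Over the same libraries 4 of 4 haemoglobin genes, 8 of 10 erythroid and 8 of 9 B cell markers fell. At the same time 10 of 12 neutrophil and 2 of 9 monocyte and macrophage markers rose. Of 8 T and NK cell markers 2 fell and 1 rose. The part of that shift in the members' values was not tested.

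In HSC at day 28, 0 of 22 members were called, with 0.0374% of all genes called. The arms overlapped for every member, against 9.11% of all genes without overlap, and log2 fold changes ran from -0.30 to 0.29. The spread within the arms was wide and shared across members. Of the 15 rRNA and protein genes, PBS library 2 was the lowest of its arm for 14, and β-glucan library 3 the highest of its arm for 14. For mt-Co3 the TMM-scaled CPM was 3642, 2622, 3752 and 2812 in PBS and 2223, 2330, 3860 and 2277 in β-glucan libraries, a log2 fold change of -0.26 ± 0.19 with an adjusted p of 0.500 by edgeR. In the β-glucan arm 3 libraries lay below every PBS library and library 3 above them all.

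Without PBS library 2 and β-glucan library 3 together, a choice made after seeing the data, edgeR called 3 members lower in β-glucan: mt-Co3, mt-Nd3 and mt-Nd4l, with log2 fold changes of -0.57, -0.57 and -0.61. Calls rose over the whole table in that fit, to 669 genes in place of 6, and 1.82% of all genes were called lower. That choice removes the lowest control and the highest treated library for most members, so it lowers the difference by its construction. Leaving out any single library gave 0 calls.

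In MPP at day 28, 0 of 22 members were called, with 4.63% of all genes called. All 13 protein genes had positive log2 fold changes, of 0.01 to 0.17, and both rRNA genes negative ones. For mt-Atp6, TMM-scaled CPM was 2329, 2453, 2324 and 2191 in PBS and 2489, 2968, 2465 and 2528 in β-glucan libraries, a log2 fold change of 0.17 ± 0.07 with an adjusted p of 0.188 by edgeR. It was the only member of the 22 without overlap, against 12.4% of all genes. For mt-Rnr1 it was 435, 508, 433 and 266 in PBS and 363, 359, 301 and 223 in β-glucan libraries, a log2 fold change of -0.40 ± 0.18 with an adjusted p of 0.248 by edgeR. The log2 ratio of summed rRNA to summed mRNA counts was -1.59 ± 0.19 in PBS and -1.94 ± 0.23 in β-glucan libraries (SD, n = 4 and 4), a difference that did not pass (exact permutation p = 0.0857, adjusted p = 0.343 over 24 tests). In the same libraries 8 of 9 B cell, 7 of 12 neutrophil, 5 of 8 T and NK cell and 2 of 9 monocyte and macrophage markers fell. Against that, 2 neutrophil markers, 1 of 10 erythroid markers and 3 of 8 stress genes rose. Their part was not tested.

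After 5-FU, most protein genes lay higher in the β-glucan arm, although none passed the main test. Of 22 members, 0 were called by edgeR, with 0.0446% of all genes called, and 8 had an unadjusted p under 0.05, as did 7.54% of all genes. The arms did not overlap for 7 of the 22, all higher in β-glucan, against 4.61% of all genes. Members varied together among libraries, with PBS library 4 the lowest of its arm in CPM for all 15 rRNA and protein genes. The 7 are therefore not independent observations. The 7 were the complex I genes mt-Nd4l, mt-Nd4, mt-Nd5 and mt-Nd6, mt-Cytb of complex III, and mt-Co1 and mt-Co2 of complex IV. mt-Nd6 lies on the minus strand, and the kit does not mark strand, so its counts cannot be told from reads of the opposite precursor.

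For mt-Nd4, TMM-scaled CPM was 460, 445, 471 and 414 in PBS and 538, 522, 541 and 555 in β-glucan libraries. Every β-glucan library lay above every PBS library, with a log2 fold change of 0.27 ± 0.06 and an adjusted p of 0.163 by edgeR. For mt-Cytb it was 1091, 1035, 1188 and 991 in PBS and 1345, 1240, 1301 and 1322 in β-glucan libraries. Its log2 fold change was 0.27 ± 0.07, with an adjusted p of 0.217 by edgeR. For mt-Co2 it was 1640, 1662, 1809 and 1615 in PBS and 1959, 1859, 1921 and 1996 in β-glucan libraries, a log2 fold change of 0.20 ± 0.06 with an adjusted p of 0.360 by edgeR. DESeq2's Wald test called 4 members higher, and 0.662% of all genes higher, with adjusted p of 0.00168 for mt-Nd4, 0.0112 for mt-Cytb, 0.0359 for mt-Nd5 and 0.0462 for mt-Co2.

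mt-Atp8 did not share this pattern in value, with a log2 fold change of -0.00 ± 0.08, nor did the rRNAs mt-Rnr1 (-0.08 ± 0.09) and mt-Rnr2 (-0.06 ± 0.09). For mt-Rnr2, TMM-scaled CPM was 6977, 7618, 6804 and 6734 in PBS and 7986, 6009, 6361 and 6704 in β-glucan libraries, and the arms overlapped.

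**Figure D2:**
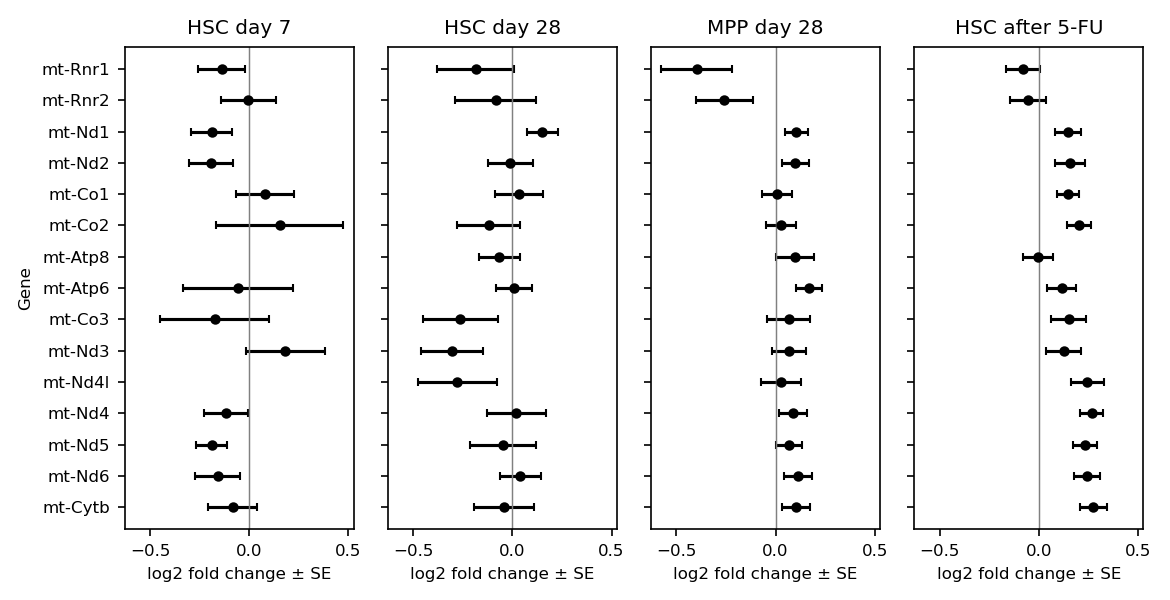
Log2 fold change of β-glucan over PBS, with its standard error, for the 2 rRNA and 13 protein genes in 4 comparisons. No gene was called; after 5-FU 12 of 13 protein genes lie above 0, and at day 7 mt-Atp8 and mt-Nd4l did not pass the filter and are not drawn.

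Set against the nuclear subunits, the mitochondrial mRNAs also lay higher in the β-glucan arm after 5-FU. The log2 ratio of the 13 summed protein genes to 77 nuclear OXPHOS subunits was 0.392, 0.390, 0.441 and 0.349 in PBS and 0.708, 0.538, 0.620 and 0.553 in β-glucan libraries. All 4 β-glucan libraries lay above all PBS libraries, by 0.21 on average (exact permutation p = 0.0286, the smallest this design can give, adjusted p = 0.343 over 24 tests). The share of counts on the 13 protein genes was 1.45% ± 0.13 in PBS and 1.69% ± 0.06 in β-glucan libraries (SD, n = 4 and 4; exact permutation p = 0.0286, adjusted p = 0.343). That separation was narrow, with the highest PBS library at 1.603% and the lowest β-glucan library at 1.604%. Haemoglobin genes took 12.2% to 15.9% of counts in the PBS and 9.07% to 12.1% in the β-glucan arm. With them taken out of the total, the difference in share was 0.218 percentage points in place of 0.242, and the exact permutation p was 0.0571. Neutrophil markers took 15.02% to 20.1% and 16.2% to 18.7% of counts, and edgeR called 0 of 4 haemoglobin genes and 0 of 12 neutrophil markers. No marker of the other cell types was called either, but whole lists lay to one side: log2 fold changes were positive for 9 of 9 monocyte and macrophage markers (median 0.24) and 7 of 8 T and NK cell markers (median 0.40), and for 0 of 10 erythroid markers (median -0.30). Their part was not tested.

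Of 36 nuclear complex I genes tested after 5-FU, 0 were called and the median log2 fold change was -0.05, and of 79 genes of the mitochondrial ribosome 0 were called, with a median of -0.03, beside 0.00 for all genes. The corresponding values for 11 genes of mitochondrial transcription were 0 called and -0.05.

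**Figure D3:**
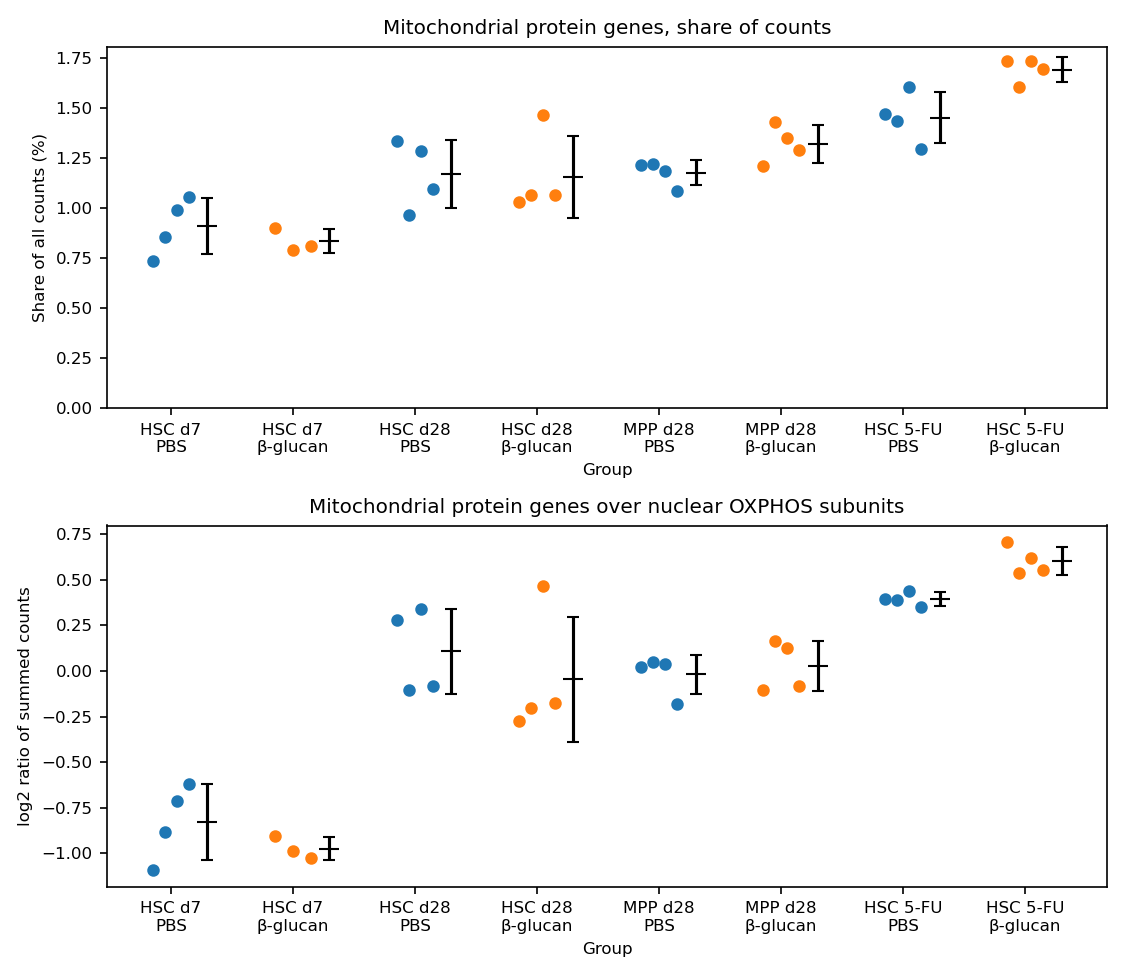
Share of all counts on the 13 protein genes (upper panel, percent) and log2 ratio of their summed counts to those of 77 nuclear OXPHOS subunits (lower panel), with 1 point per library and bars for the mean ± SD of each group. After 5-FU the β-glucan libraries lie at 0.538 to 0.708 in the lower panel, above the PBS libraries at 0.349 to 0.441; the day 7 values lack most counts of 6 genes.

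Whether the β-glucan effect differed between sets was tested with interaction terms. For MPP against HSC at day 28, day 28 against day 7, and 5-FU against day 28, 0 members were called, with 0.00599%, 4.82% and 0.106% of all genes called. For day 28 against day 7 the 23 members tested included all 13 protein genes, so also the 6 with few counts at day 7. Standard errors there reached 1.05 for protein genes and 177 for tRNA genes. For members near 0 counts at day 7 that test cannot decide whether the effects differed. The comparisons share the day 28 HSC libraries. Without PBS library 2 and β-glucan library 3 of that set, 1, 1 and 6 members were called, with 0.202%, 6.04% and 1.59% of all genes called. The calls were higher, lower and higher in turn. That choice was made after seeing the data and lowers the day 28 HSC effect by its construction. Each difference against that effect is shifted with it, so these calls cannot decide whether the effects differed.

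MPP against HSC at day 28 compared progenitors with stem cells within each arm. In PBS mice 2 of 22 members were called, both lower in MPP, with 21.7% of all genes called and 12.1% called lower. The groups did not overlap for 2 members, against 26.4% of all genes. Both encode ATP synthase subunits, and the 2 genes overlap by 43 bases, so the 2 calls are not taken as independent. For mt-Atp6, TMM-scaled CPM was 3084, 2652, 2941 and 2722 in HSC and 2199, 2313, 2193 and 2077 in MPP, and the groups did not overlap. It fell by 0.38 ± 0.08 on the log2 scale (edgeR adjusted p = 0.00668). For mt-Atp8 it was 179, 145, 138 and 182 in HSC and 112, 131, 104 and 115 in MPP, again without overlap. It fell by 0.48 ± 0.10 (edgeR adjusted p = 0.00760). Both calls held in all 18 alternative fits, among them that without the MPP library tagged as HSC. The 18 count the fit without HSC library 2 both by itself and as the exclusion of PBS library 2 with β-glucan library 3. Only the former library enters this comparison. The share of counts on all members was 1.51% ± 0.28 in HSC and 1.57% ± 0.13 in MPP (SD, n = 4 and 4; exact permutation p = 0.771, adjusted p = 0.926). Of 13 LT-HSC markers tested 8 fell from HSC to MPP and 1 rose, and 4 of 6 MPP markers rose. Of 10 erythroid markers 9 fell and of 9 B cell markers 6 rose, and their part was not tested.

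In β-glucan mice 5 of 22 members were called, 3 higher and 2 lower in MPP, with 35.6% of all genes called, 17.7% higher and 18% lower. mt-Nd4l, a complex I subunit, was 15.9, 15.7, 27.8 and 18.2 TMM-scaled CPM in HSC and 29.2, 38.7, 32.2 and 28.6 in MPP, and rose by a log2 fold change of 0.73 ± 0.17 (edgeR adjusted p = 0.00743). It was the only member here whose groups did not overlap, against 34.1% of all genes. mt-Nd3, also of complex I, was 88.7, 86.9, 128 and 90.9 in HSC and 135, 164, 120 and 127 in MPP, and rose by 0.47 ± 0.13. mt-Cytb rose by 0.41 ± 0.14, with HSC library 3 at 1221 and the other HSC libraries at 720 to 850, against 1076 to 1293 in MPP. mt-Atp8 fell by 0.31 ± 0.10, and mt-Tp, a minus-strand tRNA, fell by 0.56 ± 0.18. Single libraries moved these counts. Without HSC library 3 edgeR called 11 members, without HSC library 4 it called 3, and without HSC library 1 or 2 or MPP library 1 or 3 it called 2. The calls of mt-Nd3 and mt-Nd4l held in all 18 alternative fits, and those of mt-Atp8 and mt-Cytb in 13 and 11 of 18. The 18 count the fit without HSC library 3 both by itself and as the exclusion of PBS library 2 with β-glucan library 3. Only the latter library enters this comparison. In these libraries 9 of 14 LT-HSC markers fell and 2 rose, 10 of 10 erythroid and 7 of 12 neutrophil markers fell and 4 of 9 B cell markers rose, and their part was not tested.

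**Figure D4:**
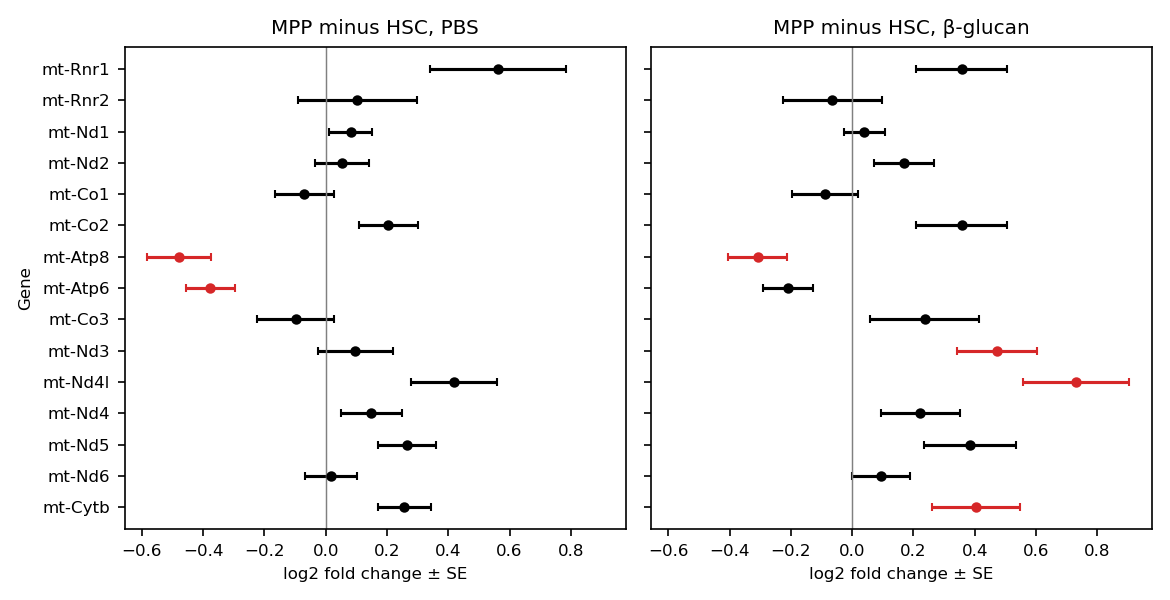
Log2 fold change of MPP over HSC at day 28, with its standard error, for the 2 rRNA and 13 protein genes in PBS mice (left) and β-glucan mice (right); red points were called. mt-Atp8 lies below 0 in both panels, at -0.48 and -0.31, and mt-Nd4l above 0, at 0.42 (not called) and 0.73.

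Nuclear genes that serve these RNAs were counted in the same fits. In PBS mice 17 of 80 genes of the mitochondrial ribosome were higher in MPP and 2 lower, among them Mrpl11, of its large subunit, by a log2 fold change of 0.41, and 2 of 11 genes of mitochondrial transcription were higher, with 9.58% of all genes called higher. In β-glucan mice 34 of 80 and 7 of 11 were higher and 0 lower, with 17.7% of all genes called higher, among them Tefm, a transcription elongation factor, by 0.40. Medians for the mitochondrial ribosome were 0.14 and 0.16, beside -0.02 and -0.01 over all genes. Among other lists in PBS mice, 2 of 29 genes of mitochondrial RNA processing and stability were higher in MPP and 2 lower. For mitochondrial DNA replication it was 2 and 2 of 15, and for biogenesis regulators 1 and 1 of 9. For nuclear complex I it was 0 and 1 of 36. In β-glucan mice, in the same order, it was 10 and 2, 5 and 1, 2 and 0, and 4 and 0.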

How the data were processed

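The deposited values are whole-number read counts per gene from the authors, held in 3 files with 7, 16 and 8 libraries. Per the labels' protocols, RNA was prepared with a SMARTer Ultra kit, and per the submitters' processing notes bcl2fastq 1.8.4 and featureCounts were used; the aligner and the strand setting are not given in the sources used here. Column names carry neither day nor 5-FU, so each table was matched to its set by its number of libraries and cell types. The length column deposited by the authors served for values per kilobase. Comparisons used edgeR 4.0.16 (quasi-likelihood test, TMM scaling, filterByExpr with a minimum count of 10, Benjamini-Hochberg threshold of 0.05 over all genes) on the libraries compared. Library-level measures were compared by exact 2-sided permutation (scipy 1.17.1), adjusted over 24 tests; 4 against 4 libraries cannot go below p = 0.0286 and 4 against 3 not below 0.0571. The fits were tested on simulated data. All rRNA and protein genes were named, with tRNAs and list genes by count or p. The choice to describe the mitochondrial chromosome, and the gene lists, were made with earlier results of these data known; membership itself follows from the chromosome. Sequences come from GENCODE M21 transcripts (GRCm38); all columns of counts were used. Alternatives were DESeq2 1.42.0, limma 3.58.1 voom, other scalings and filters, a replicate block and leaving out libraries. Same-numbered libraries did not correlate above 0.1 in every pair of any comparison, so numbers were not treated as pairs.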

Additional observations from a re-analysis of the deposited data

Results flagged for a closer look

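In groups of 4 libraries, the gap of the highest or lowest library to its neighbour was compared with the range of the group by Dixon's 95% limit, in 133 groups of values. Chance flags about 1 in 20 such groups, and 10 were found, 7 of them from the same library, β-glucan library 3 of HSC at day 28. Its share of counts on all members was 1.90% (others 1.33% to 1.37%), that on protein genes 1.46% (others 1.03% to 1.07%), and its log2 ratio of mitochondrial to nuclear OXPHOS counts 0.466 (others -0.274 to -0.174). It stood at 4104 CPM for mt-Rnr2 (others 2615 to 2804), 266.7 for mt-Nd2 (197 to 206), 3954 for mt-Co3 (2271 to 2377) and 123.9 for mt-Nd3 (84.0 to 86.6). PBS library 4 of MPP was low in its log2 rRNA to mRNA ratio, at -1.87 (others -1.53 to -1.47), and in its log2 mitochondrial to nuclear OXPHOS ratio, at -0.183 (others 0.0206 to 0.0474). PBS library 3 of HSC at day 7 was high for mt-Rnr1, at 708.0 CPM (others 534 to 553).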

How the results depend on the processing

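Counts of called members are given for each setting that moved them by over 1.5 times, with smaller moves where named. In HSC at day 28, 0 became 3 without PBS library 2 and β-glucan library 3. In MPP, 0 became 1 without a filter, where mt-Rnr1 was called. After 5-FU, 0 became 4 with DESeq2. For MPP against HSC in PBS mice, 2 became 6 without a filter, 5 with DESeq2, 5 with voom and 4 with all 8 groups in 1 fit, 3 each with DESeq2 size factors, without haemoglobin genes or without PBS library 2, and 2 to 4 on leaving out a library (4 without HSC library 1 or MPP library 4). In β-glucan mice, 5 became 8 without a filter, 9 with DESeq2, 9 with voom and 7 with all 8 groups in 1 fit. On leaving out a library it became 2 to 11 (the libraries are named in the report). The 11 came without HSC library 3. Of the pair of PBS library 2 and β-glucan library 3, only that library enters this comparison. Leaving out that pair also gave 1, 1 and 6 in the 3 tests of differences between effects. The exclusion of that pair, and of the 6 genes with few counts at day 7, was chosen after seeing the data. Beyond construction (fewer genes or libraries), the cause of these moves was not tested.

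With a replicate block, 2 members were called in MPP (mt-Rnr1 and mt-Rnr2, lower), 5 for MPP against HSC in PBS mice and 10 in β-glucan mice; the numbers do not mark pairs in the labels. Same-numbered libraries correlated at 0.0926, 0.152, 0.179 and 0.168 in the last, each best with its own number.

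No library-level measure passed after adjustment as reported; under the alternatives p was not adjusted, and its lowest value was 0.0286, after 5-FU. Values near 0 changed sign. For β-glucan against PBS in HSC at day 28, the difference in share on all members was 0.0145 percentage points without the 6 genes and -0.162 to 0.0557 on leaving out a library; on protein genes it was 0.0250 and -0.116 to 0.0419; in the log2 rRNA to mRNA ratio it was -0.0815 and -0.105 to 0.114. For MPP against HSC in PBS mice the share on all members ran from -0.0525 to 0.138 and on protein genes from -0.0614 to 0.0618 (-0.0232 without haemoglobin), and the log2 ratio to nuclear OXPHOS was 0.00286 without the 6 genes. That ratio ran from -0.00208 to 0.245 for MPP against HSC in β-glucan mice and from -0.00790 to 0.0897 for β-glucan in MPP. Of the tRNAs, 15 of 22 had too few counts to be tested at day 28.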
